A study of Mus musculus with 16 samples.

Results

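The response of the cbp+/- hippocampus to an enriched environment was read from 8 of the 16 arrays of the series. They were the 3 arrays titled as cbp+/- after enrichment and the 5 titled as cbp+/- in the standard cage. The mice of both groups were female, 3 months old, bred on a mixed background (the F2 of C57BL/6J and DBA), and heterozygous for a deficiency of Crebbp. One group lived in ordinary cages and the other spent 2 weeks in a large box with running wheels, toys, tubing and natural materials. Tissue was taken many hours after that box had last been rearranged, so that an acute reaction to novelty was avoided. Equal amounts of hippocampal RNA from 4 mice were pooled for each array, so the comparison covers 12 enriched and 20 standard-cage mice. Each array is 1 pool, and the spread between individual mice cannot be seen. Wild-type littermates in the same 2 housings (3 and 5 arrays) were used only where the response of cbp+/- mice was set beside theirs. Arrays are named by genotype, housing (EE for enrichment, SC for standard cage) and replicate number, as in CBP_EE_3. All levels are log2 of the deposited signal of the gene's brightest probe set, and a change is the mean of the enrichment arrays minus that of the standard-cage arrays.

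Crebbp encodes CBP, a histone acetyltransferase that is recruited by the transcription factor CREB when neuronal activity raises calcium or cAMP. CREB binds the cAMP response element (CRE) in the promoters of many neuropeptide, neurotrophin and immediate early genes, and CBP is one of the coactivators through which it acts. Running and novelty are known to raise Bdnf in the rodent hippocampus and to favour the birth and survival of granule neurons in the dentate gyrus. The comparison asks which of these genes differ with housing in animals with a reduced dose of this coactivator.

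Crebbp itself was measured between 9.33 and 9.88 on the 8 cbp+/- arrays and between 9.18 and 9.64 on the 8 wild-type arrays, so the heterozygous state was not visible as a lower signal. The probes of this array lie along the whole transcript and could also read a mutant transcript if one is still made, which was not tested. The Crebbp signal therefore does not check the genotype labels. The cbp+/- arrays carried the genes that mark the hippocampus. Prox1 of dentate granule cells lay between 8.02 and 8.82, Neurod6 of pyramidal cells between 9.08 and 10.27, and Wfs1 of CA1 between 7.78 and 8.52, while of striatal markers the receptor gene Drd2 lay between 5.88 and 6.05 and Ppp1r1b between 7.29 and 7.57.

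The 8 arrays also fell into sets that cross the housings. By clustering of all 16 arrays, CBP_SC_1, CBP_SC_2, CBP_EE_1 and CBP_EE_2 formed set A, CBP_SC_3 lay in set B, CBP_SC_4 in set C, and CBP_SC_5 and CBP_EE_3 in set D. The first principal component of the 8 arrays carried 41.4% of their variance. The sets, which were formed from the same values, account for 99.4% of that component and the housings for 11.02%. The labels name no batch, so what the sets stand for is unknown. Only sets A and D hold both housings, so values within them are given beside many of the results. CBP_SC_3 also held the most choroid plexus RNA, which WT_SC_3, the other array of set B, did not share (Ttr at 7.75). Ttr, the transthyretin gene of that tissue, was at 12.69 on this array and between 7.25 and 9.95 on the other 4 standard-cage arrays.

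Bdnf, a neurotrophin that CREB activates, was higher after enrichment and had the smallest unadjusted p of all probe sets. Penk, the proenkephalin gene, was higher by a larger step, and Dcc, a receptor gene for the guidance cue netrin, was lower. No difference passed the test. With limma, 0 of 21780 probe sets passed an adjusted p of 0.05 in the higher direction and 0 in the lower (0% each), and the smallest adjusted p was 0.999. At an unadjusted p under 0.05 there were 335 higher (1.54%) and 280 lower (1.29%). Together these 615 are a smaller share than the threshold of 0.05 itself. Weighting the arrays by their fit, which gave CBP_EE_1 most weight, passed 692 higher and 347 lower, and the array set as a block passed 0 higher and 1 lower. With that block 1901 had an unadjusted p under 0.05, so the share depends on the model. Every gene below is described by its values and not as called. The typical change was small against its error. The median size of a change was 0.061 on the log2 scale, with a median SE of 0.095.

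A gene was counted as separated when all 3 enrichment arrays lay above, or all 3 below, all 5 standard-cage arrays. This held for 358 probe sets above (1.64%) and 272 below (1.25%). With 1 probe set per gene, the basis of the gene lists, it held for 340 of 19935 genes above (1.71%) and 236 below (1.18%). Of the 56 ways to label 3 of these 8 arrays, 1 separates a given probe set above and 1 below. That is a share of 0.0357 for both directions together, and the counts here do not exceed it. After quantile normalization 291 probe sets were separated above and 312 below. Changes of at least 0.5 were seen for 6 probe sets higher and 8 lower, and only Ttr, the choroid plexus gene named above, exceeded 1, at -1.23 (SE 1.10).

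The 18 CREB-target neuropeptides and secreted factors included both Bdnf and Penk. After enrichment 15 of 18 were higher and 3 lower, against 11071 of 19935 genes higher in all and 55% of probe sets higher and 45% lower. Of the 18, 3 were separated above and 0 below, against 1.71% and 1.18% of all genes, and 6 had an unadjusted p under 0.05 in the higher direction, against 1.54% of probe sets. The median change was 0.19 against 0.011 for all genes. It was 0.16 within set A, 0.10 within set D, and between 0.14 and 0.21 when each cbp+/- array was left out in turn. Earlier results on these arrays were known when the list was drawn up, so this direction is a description.

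Because these genes were grouped for their link to CREB, the promoters of 14 of them that the RefSeq table of GRCm38.p6 holds were searched on both strands, from 250 bases before to 50 bases after each start. Penk, Vgf, Crh and Nptx2 have no promoter in that table and were not searched. The full CRE, TGACGTCA, was found in 3 of the 14 genes (Scg2, Cartpt and Sst) and in 2.03% of all 27025 genes with a promoter in the table (1.79% of 32851 promoters). Its shorter form TGACG, which every full CRE contains, was found in 11 of 14 genes and in 23% of all genes (20.8% of promoters). The AP-1 motif TGANTCA was found in 1 of the 14, one promoter of Bdnf, and in 8.97% of all genes (7.81% of promoters). Genes with several promoters have more chances of a match, and Bdnf has 7 in the table. The shorter form also occurred in 15 of 18 immediate early transcription factors and 15 of 21 activity-regulated effectors, and the full CRE in 1 of 18 and 6 of 21. A match is a stretch of letters and not a measured binding site.

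Promoters of 3 members are shown, since they span the range from no match to a full CRE, with changes in signal of 0.46, 0.12 and 0.61 in turn: Bdnf with the shorter form, Sst with the full element, and Npy with neither. Capitals mark the shorter form as it reads on the printed strand in Bdnf (35 to 31 bases before the start) and the full CRE in Sst (48 to 41 bases before the start). They lie at chr2:109692186-109692485 (plus strand), chr16:23890795-23891094 (minus strand) and chr6:49822460-49822759 (plus strand) of GRCm38.p6, each running 5′ to 3′ on the gene's strand.
Bdnf: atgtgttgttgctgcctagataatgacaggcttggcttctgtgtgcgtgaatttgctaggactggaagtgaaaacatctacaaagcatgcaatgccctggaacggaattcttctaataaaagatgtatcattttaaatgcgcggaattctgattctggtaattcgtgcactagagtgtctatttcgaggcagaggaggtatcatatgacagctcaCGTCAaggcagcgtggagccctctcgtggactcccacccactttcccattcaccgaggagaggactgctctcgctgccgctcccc
Sst: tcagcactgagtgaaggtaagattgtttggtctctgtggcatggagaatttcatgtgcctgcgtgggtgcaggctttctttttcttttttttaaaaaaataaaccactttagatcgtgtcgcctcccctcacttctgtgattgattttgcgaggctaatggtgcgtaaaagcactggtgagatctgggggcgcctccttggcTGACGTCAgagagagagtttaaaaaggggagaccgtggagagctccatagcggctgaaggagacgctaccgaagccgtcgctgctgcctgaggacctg
Npy: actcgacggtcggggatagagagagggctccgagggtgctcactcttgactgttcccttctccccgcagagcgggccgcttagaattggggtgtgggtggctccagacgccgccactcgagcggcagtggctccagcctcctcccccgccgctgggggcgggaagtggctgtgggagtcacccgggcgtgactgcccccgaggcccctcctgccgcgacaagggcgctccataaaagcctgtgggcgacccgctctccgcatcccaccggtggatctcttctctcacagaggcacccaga

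Bdnf, the neurotrophin that signals through the receptor TrkB, read 6.86, 6.84, 6.42, 6.71 and 6.93 on CBP_SC_1 to CBP_SC_5 and 7.18, 7.23 and 7.22 on CBP_EE_1 to CBP_EE_3. Every enrichment pool was above every standard-cage pool, and the enriched pools were close together while the standard-cage pools were not. The change was 0.46 (SE 0.10), with 0.35 within set A and 0.29 within set D. With the array sets as a block it was 0.37 (SE 0.092). The probe set covers the gene as a whole and does not separate its promoters.

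Penk encodes proenkephalin, the precursor of the enkephalin opioid peptides. It read 8.48, 8.54, 8.52, 7.78 and 8.75 on the standard-cage arrays and 9.19, 9.14 and 9.74 on the enrichment arrays. The groups did not overlap, although CBP_SC_4 was low and CBP_EE_3 high within their groups. The change was 0.94 (SE 0.28), with 0.66 within set A and 0.99 within set D. Leaving out CBP_EE_3 gave 0.75, and the array sets as a block gave 0.70 (SE 0.11).

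Npy, which encodes neuropeptide Y of interneurons, read 9.05, 8.91, 9.16, 8.99 and 9.61 in the standard cage and 9.53, 9.60 and 10.11 after enrichment. The groups overlapped: CBP_SC_5 was above both CBP_EE_1 and CBP_EE_2. CBP_SC_5 and CBP_EE_3, the highest arrays of their groups, are the 2 arrays of set D. The change was 0.61 (SE 0.20), and it was 0.59 within set A and 0.51 within set D. With the array sets as a block it was 0.56 (SE 0.067, limma adjusted p = 0.052, against 0.999 without the block). With that block the limma adjusted p was 0.53 for Bdnf and 0.32 for Penk.

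Inhba encodes the activin subunit beta A. It read 6.41, 6.47, 6.05, 6.54 and 6.32 in the standard cage and 6.56, 6.62 and 6.59 after enrichment, so the groups were separated by a narrow gap. The change was 0.23 (SE 0.089), and 0.16 without CBP_SC_3, the array with the lowest level. Vgf, which encodes a secreted precursor of neuronal peptides, read 7.40, 7.60, 7.85, 7.56 and 7.70 in the standard cage and 7.95, 7.81 and 8.02 after enrichment. Only CBP_SC_3 reached into the enriched range, and the change was 0.30 (SE 0.12).

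**Figure D1:**
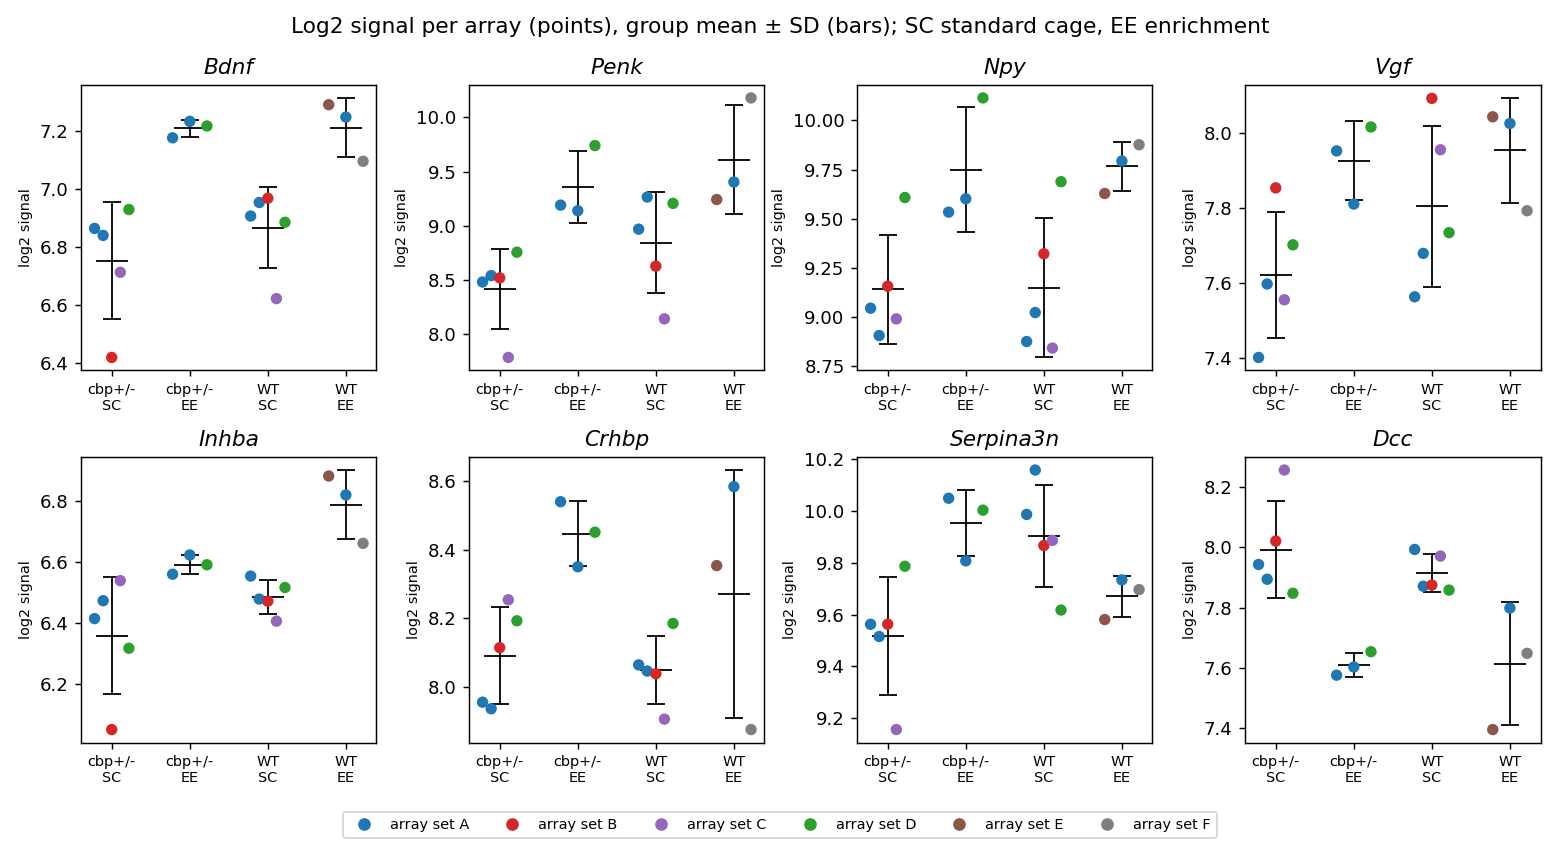
Log2 signal of 8 genes on every array (points, coloured by array set) with the group mean and SD (bars) for cbp+/- and wild-type mice in the standard cage (SC) and after enrichment (EE). In cbp+/- mice the 3 enrichment arrays of Bdnf lie between 7.18 and 7.23 and its 5 standard-cage arrays between 6.42 and 6.93, while the Npy groups overlap.

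The other members of the list were less separated. Tac1, the substance P precursor gene, differed by 0.48, but its SE was 0.28 and CBP_EE_2 at 6.81 lay below 3 of the 5 standard-cage arrays. Adcyap1, which encodes the peptide PACAP, differed by 0.19 (SE 0.082) and Scg2, the secretogranin II gene with a full CRE, by 0.22 (SE 0.13), each with 2 of 3 enrichment arrays above the standard-cage range. Nptx2, which encodes a secreted pentraxin that gathers AMPA receptors at synapses, differed by 0.23 (SE 0.17) and by 0.056 without CBP_EE_2. Trh, the thyrotropin-releasing hormone gene, differed by 0.19 (SE 0.11).

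The remaining peptide genes overlapped between housings. Sst, the somatostatin gene of interneurons whose full CRE is printed above, read 10.60, 10.51, 11.19, 10.45 and 10.80 against 10.76, 10.75 and 10.99. All 3 enrichment arrays lay inside the standard-cage range, and the change was 0.12 (SE 0.19). It was 0.24 without CBP_SC_3, the highest array, 0.20 within set A and 0.19 within set D. The array sets as a block gave 0.21 (SE 0.053). Vip differed by 0.15 (SE 0.11), Crh by 0.077 (SE 0.099), Cartpt by 0.038 (SE 0.094) and Gal by 0.0095 (SE 0.064). Lower values were seen for Chga, the chromogranin A gene (-0.048, SE 0.13), Pdyn, the prodynorphin gene (-0.015, SE 0.11), and Cck, the cholecystokinin gene (-0.0016, SE 0.21). The signs of Cck and Gal turned with quantile normalization, and those of Egr1 (below), Cartpt, Gal, Chga, Pdyn and Cck when single arrays were left out. The opioid genes Penk and Pdyn thus had changes of 0.94 and -0.015 in the same pools.

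Other neuropeptide genes were split more evenly. Of 29 further members of the neuropeptide, opioid and granin system, 18 were higher and 11 lower, with a median of 0.026. Crhbp, which encodes the protein that binds and neutralises corticotropin-releasing hormone, was the 1 separated above, against 1.71% of all genes. It read 7.96, 7.94, 8.12, 8.25 and 8.19 in the standard cage and 8.54, 8.35 and 8.45 after enrichment. All enrichment arrays were above the standard-cage range, and the change was 0.36 (SE 0.13), with 0.50 in set A and 0.26 in set D. The 1 separated below, against 1.18% of all genes, was Tacr3, a dim tachykinin receptor gene (-0.069, SE 0.075). Of 15 neurotrophin and receptor genes, 4 were higher and 11 lower (median -0.063, but 0.0048 in set A and 0.067 in set D). Bdnf was the 1 separated above, against 1.71% of all genes.

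Penk and Tac1 are also abundant in the striatum, a neighbouring tissue, and striatal markers were mostly higher as well. Of 12 striatal genes measured 11 were higher, with a median of 0.079 (0.15 in set A and -0.029 in set D). With quantile normalization 8 of the 12 were higher, with a median of 0.084. The 1 lower gene, Pde10a, differed by -0.22 (SE 0.11), with -0.18 in set A and 0.10 in set D. Without Penk and Tac1, 9 of 10 were higher and 0 were separated, with a median of 0.050. The summed signal of these 10 ranged from 1036 to 1129 on the standard-cage arrays and from 1042 to 1144 on the enrichment arrays. No deposited value is below 22.12, so a signal above 0 could not show whether striatal RNA was present. Of striatal markers, Drd2 lay at the 39.2 percentile of brightness and Ppp1r1b at the 67.2 percentile. The part of striatal RNA in the Penk difference was not tested. Markers of GABA signalling and interneurons, which include cells that make Npy and Crhbp, were higher for 6 of the 21 genes outside the CREB-target list. Their summed signal was 10551 to 13568 in the standard cage and 10613 to 12142 after enrichment. In bulk tissue, fewer cells of a type and less RNA per cell cannot be told apart.

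Immediate early transcription factors, the first genes switched on by synaptic activity, were mostly a little higher. Of 24, 20 were higher and 4 lower, against 11071 of 19935 genes higher in all. The median was 0.10, with leave-one-out medians from 0.062 to 0.15. It was 0.16 in set A and 0.095 in set D. Separated above were 3 and below 0, against 1.71% and 1.18% of all genes. An unadjusted p under 0.05 in the higher direction was seen for 2, against 1.54% of probe sets. The separated ones differed by small amounts: Maff, a small Maf factor, by 0.12 (SE 0.057), Nfil3, a repressor of the bZIP family, by 0.19 (SE 0.16), and Jun, a subunit of AP-1, by 0.078 (SE 0.11).

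The classical markers of recent activity overlapped between housings. Fos, the partner of Jun in AP-1, read 6.31, 6.41, 6.68, 6.35 and 6.52 in the standard cage and 6.88, 6.91 and 6.55 after enrichment. The 2 enrichment arrays of set A were above the standard-cage range and CBP_EE_3 was inside it. The change was 0.33 (SE 0.18), with 0.53 within set A and 0.033 within set D. Arc, which encodes a synaptic protein that governs AMPA receptor uptake, read 8.06, 7.83, 9.32, 8.31 and 8.51 in the standard cage and 8.60, 8.53 and 8.76 after enrichment. CBP_SC_3 was the highest of all 8. The change was 0.22 (SE 0.34) with that array and 0.45 without it, with 0.62 in set A and 0.26 in set D.

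Egr1, an activity-dependent zinc finger factor, had the same shape. It read 6.81, 6.75, 8.09, 7.11 and 7.27 in the standard cage and 7.20, 7.23 and 7.34 after enrichment. The change was 0.052 (SE 0.30) and 0.27 without CBP_SC_3, with 0.44 in set A and 0.063 in set D. Npas4, a factor specific to neuronal activity, differed by 0.16 (SE 0.18) and by 0.27 without CBP_SC_3, with 0.26 in set A and 0.50 in set D. For Arc, Egr1 and Npas4, 1 standard-cage pool thus held the highest level of the comparison. WT_SC_3, which shares set B with it, was likewise the highest wild-type standard-cage array for these genes, at 9.17, 7.91 and 6.77 in turn. Of 27 activity-regulated effector genes, 21 were higher and 6 lower (median 0.089). Separated above were 2, against 1.71% of all genes, and these, Bdnf and Inhba, are also in the CREB-target list. The effector median was 0.13 in set A and -0.0062 in set D.

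**Figure D2:**
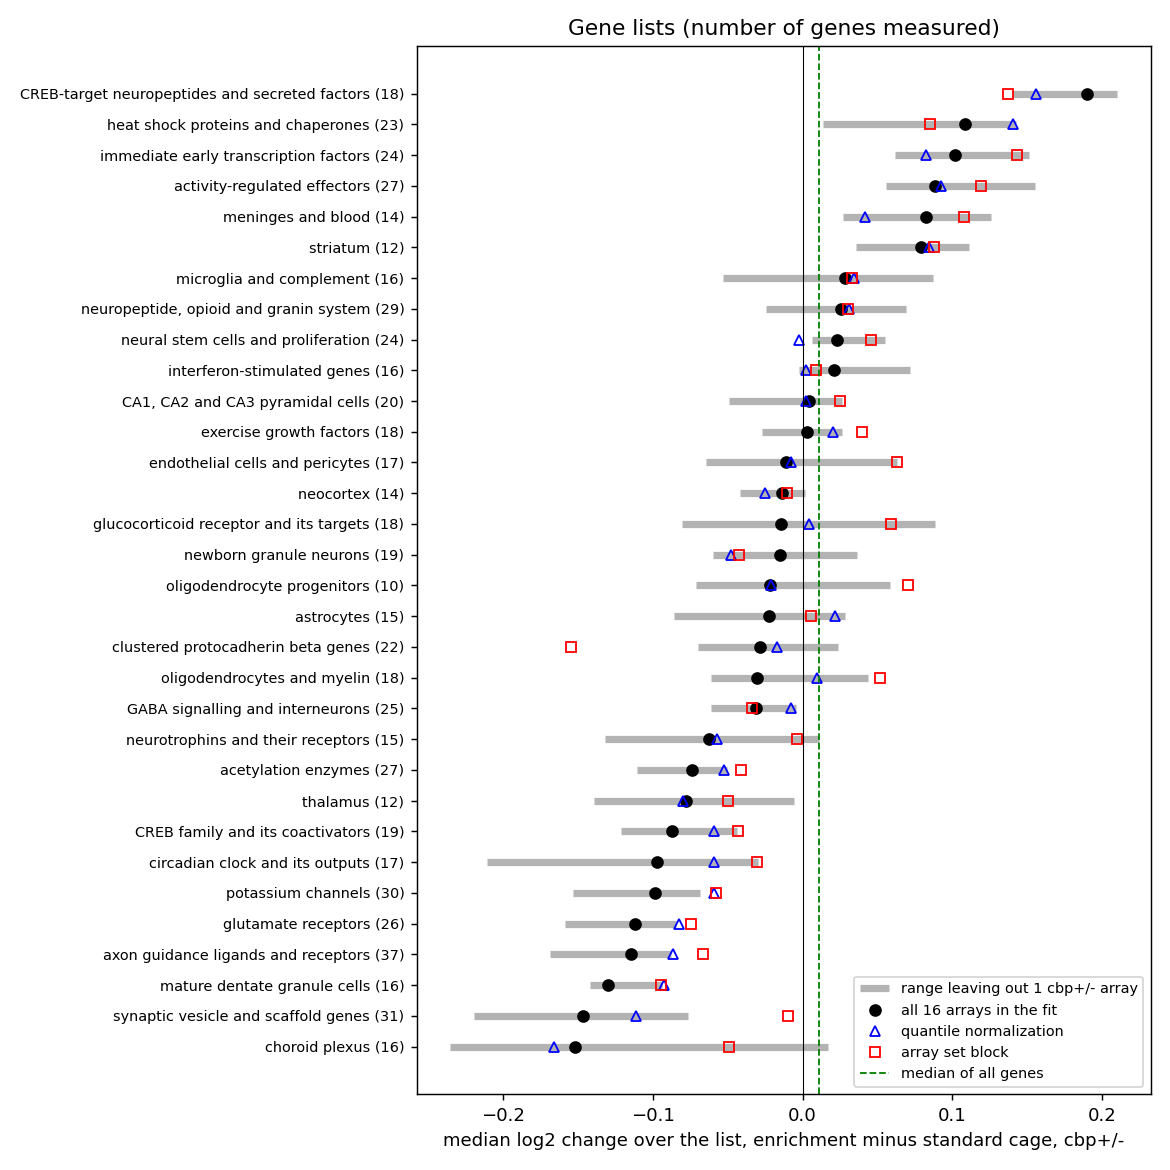
Median log2 change in cbp+/- mice (horizontal axis) of 32 gene lists, with the number of genes measured, for the fit over 16 arrays (black), quantile normalization (blue), the array set block (red) and the range when 1 cbp+/- array is left out (grey); the dashed line is the median of all genes, 0.011. The CREB-target list has the highest median, 0.19, and the choroid plexus list the lowest, -0.15, whose grey bar crosses 0.

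Growth factor and neurogenesis genes did not share a direction. Of 18 exercise-related growth factor genes, 9 were higher and 9 lower, with a median of 0.0028 and 0 separated in either direction. Igf1, the insulin-like growth factor that running raises in the circulation, differed by 0.053 (SE 0.059). Its receptor gene Igf1r differed by -0.30 (SE 0.16), or -0.20 without CBP_SC_3. Igfbp6, which encodes a binding protein for insulin-like growth factors, differed by 0.45 (SE 0.17) with 1 of 3 enrichment arrays above the standard-cage range.

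Markers of newborn granule neurons were higher for 8 of 19 genes (median -0.015, with -0.048 in set A and 0.068 in set D). Dcx, the doublecortin gene of migrating young neurons, read 7.03, 7.12, 6.94, 7.13 and 6.90 in the standard cage and 6.86, 6.77 and 7.02 after enrichment. The groups overlapped, and the change was -0.14 (SE 0.10). It had opposite signs in the sets, -0.26 in A and 0.12 in D. Neurog2, a proneural factor of progenitors, was separated above by a small step of 0.093 (SE 0.042) at a low level.

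Genes of neural stem cells and proliferation were higher for 17 of 24, with a median of 0.023 that turned to -0.0027 with quantile normalization and was -0.017 in set D. Mcm7, part of the helicase of replicating DNA, was the 1 separated above, at 0.11 (SE 0.080), against 1.71% of all genes. Mature dentate granule cell genes were lower for 11 of 16 (median -0.13, with -0.076 in set A and -0.064 in set D). Pyramidal cell genes split evenly, 10 higher and 10 lower. Bok, a Bcl-2 family gene enriched in CA3, was the 1 separated above (0.24, SE 0.19), against 1.71% of all genes. Its change was 0.38 in set A and 0.069 in set D.

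Genes of synaptic structure were lower in most cases, and the sets differed in how much. Of 31 synaptic vesicle and scaffold genes, 27 were lower and 4 higher, with a median of -0.15. That median was -0.047 in set A, 0.041 in set D, -0.0097 with the sets as a block, and -0.077 without CBP_SC_3, on which the list stood highest. The 1 member separated below, against 1.18% of all genes, was Nlgn2, the neuroligin of inhibitory synapses. It read 8.05, 8.03, 9.15, 8.47 and 7.93 in the standard cage and 7.93, 7.92 and 7.79 after enrichment. The gap between the groups was narrow and CBP_SC_3 stood far above the rest. WT_SC_3 of the same set was likewise the highest wild-type standard-cage array, at 8.95. The change was -0.45 (SE 0.30), and -0.24 without CBP_SC_3.

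Glutamate receptor genes were lower for 22 of 26, with a median of -0.11 and 0 separated, but the median was -0.10 in set A and 0.074 in set D. Grik2, a kainate receptor subunit gene, differed by -0.22 (SE 0.12), with 2 of 3 enrichment arrays below the standard-cage range. Potassium channel genes were lower for 21 of 30 (median -0.099, with -0.11 in set A and 0.032 in set D), with 0 separated and 3 at an unadjusted p under 0.05 against 1.29% of probe sets. Of these, Kcnb2, a delayed rectifier subunit gene, had the smallest p and differed by -0.22 (SE 0.078). Nos1, the neuronal nitric oxide synthase gene, read 7.50, 7.50, 8.41, 8.25 and 7.18 against 7.15, 7.20 and 7.21. The enriched pools sat together at the bottom of a wide standard-cage range that CBP_SC_5 overlapped. The change was -0.58 (SE 0.25), with -0.32 in set A and 0.034 in set D.

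Axon guidance genes were lower for 30 of 37, with a median of -0.11. Of the 37, 2 were separated below and 1 above, against 1.18% and 1.71% of all genes. The median was -0.090 in set A and 0.054 in set D. Dcc read 7.94, 7.89, 8.02, 8.26 and 7.85 in the standard cage and 7.58, 7.60 and 7.65 after enrichment. The gap between the groups was as wide as the spread of 4 of the 5 standard-cage arrays, with CBP_SC_4 higher still. The change was -0.38 (SE 0.093), with -0.33 in set A and -0.19 in set D. Plxna2, a semaphorin co-receptor gene, was the other separated below, by -0.29 (SE 0.12), but by -0.0075 within set D. Sema3e, which encodes a semaphorin ligand of plexins, was separated above at 0.20 (SE 0.11), and 0.11 without CBP_SC_3.

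The transcription machinery around CBP leaned lower without separating. Of 19 genes of the CREB family and its coactivators 14 were lower (median -0.087), and of 27 acetylation enzymes 22 were lower (median -0.074), with 0 separated in either list. Within sets A and D the first median was -0.056 and 0.023 and the second -0.027 and -0.0097. Crebbp read 9.50, 9.42, 9.68, 9.88 and 9.35 in the standard cage and 9.37, 9.33 and 9.37 after enrichment. CBP_SC_5 lay within the enriched range. The change was -0.21 (SE 0.11), and within set D it was 0.023. Ep300, which encodes the related coactivator p300, differed by -0.29 (SE 0.15), with -0.19 in set A and 0.038 in set D.

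Single enzymes of these lists were somewhat further apart. Kat6a, a MYST-family acetyltransferase gene, differed by -0.24 (SE 0.11) with 2 of 3 enrichment arrays below the standard-cage range. Hdac1, a class I deacetylase gene, differed by 0.16 (SE 0.073) in the opposite direction. Rps6ka5, which encodes the kinase MSK1 that phosphorylates CREB and histone H3, differed by -0.19 (SE 0.071). Fhl2, a LIM-domain coactivator gene, was outside these lists and separated above. It read 7.37, 7.42, 7.38, 7.42 and 7.36 in the standard cage and 7.60, 7.50 and 7.62 after enrichment. Its standard-cage pools lay close together, and the change was 0.18 (SE 0.067).

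Over all genes, the brighter ones with the smallest p among separated genes added others that no list held. Higher after enrichment was Serpina3n, a secreted protease inhibitor gene of reactive astrocytes. It read 9.56, 9.52, 9.56, 9.16 and 9.79 in the standard cage and 10.05, 9.81 and 10.004 after enrichment. CBP_EE_2 was only just above CBP_SC_5, and the change was 0.44 (SE 0.13), with 0.39 in set A and 0.22 in set D. The astrocyte markers as a list had no common direction: 7 of 15 were higher, and their summed signal ranged from 17281 to 19302 in the standard cage and from 17326 to 18659 after enrichment.

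Ppp1r3c, which encodes a subunit that targets protein phosphatase 1 to glycogen, read 7.86, 7.80, 7.45, 7.47 and 7.63 against 7.95, 7.94 and 8.09. The groups did not overlap, but the 2 standard-cage arrays of set A came close. The change was 0.35 (SE 0.11), with 0.12 in set A and 0.45 in set D. Serpinh1, the collagen chaperone gene, differed by 0.32 (SE 0.10), S100a11, a calcium-binding protein gene, by 0.18 (SE 0.054), and Vwa3b, a von Willebrand domain gene, by 0.19 (SE 0.053). Among dimmer genes, Rhoj, an endothelial gene, read 6.27, 6.21, 6.38, 6.09 and 6.45 against 6.66, 6.60 and 6.48. CBP_EE_3 was only just above CBP_SC_5. The change was 0.30 (SE 0.072), with 0.39 in set A and 0.028 in set D. Cd93, another endothelial gene, differed by 0.33 (SE 0.093), with 0.20 in set A and 0.57 in set D. Endothelial and pericyte genes as a list were higher for 8 of 17 (median -0.011).

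Lower after enrichment was Anapc1, a scaffold subunit gene of the anaphase-promoting complex. It read 9.02, 8.87, 9.02, 8.96 and 8.84 against 8.71, 8.73 and 8.67. The groups did not overlap, and the change was -0.24 (SE 0.060), with -0.22 in set A and -0.18 in set D. Tgfbr1, which encodes a type I receptor of TGF-beta, read 7.41, 7.45, 7.62, 7.36 and 7.36 against 7.16, 7.19 and 7.11. All enrichment arrays lay below the standard-cage range, and the change of -0.29 (SE 0.083) was similar in both sets, -0.26 in A and -0.25 in D.

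Among the 203 probe sets separated below in the brighter part, the others of the 12 genes with the smallest p were Herc1, a giant ubiquitin ligase gene (-0.27, SE 0.086), Usp28, a deubiquitinase gene (-0.24, SE 0.071), Lrba, a vesicle traffic gene (-0.23, SE 0.064), and Atp13a3, a polyamine transporter gene (-0.22, SE 0.070). With them were Gmeb2, a glucocorticoid modulatory element binding protein gene (-0.31, SE 0.10), Nfrkb, a subunit gene of the INO80 remodelling complex (-0.25, SE 0.070), and Gfpt1, which opens the hexosamine pathway (-0.25, SE 0.082). Sepsecs, which completes the charging of selenocysteine tRNA (-0.22, SE 0.056), and Itih3, an inter-alpha-trypsin inhibitor heavy chain gene (-0.22, SE 0.064), were the last of these 12. Within set D, Usp28 was at -0.016, Sepsecs at -0.034 and Atp13a3 at -0.050.

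**Figure D3:**
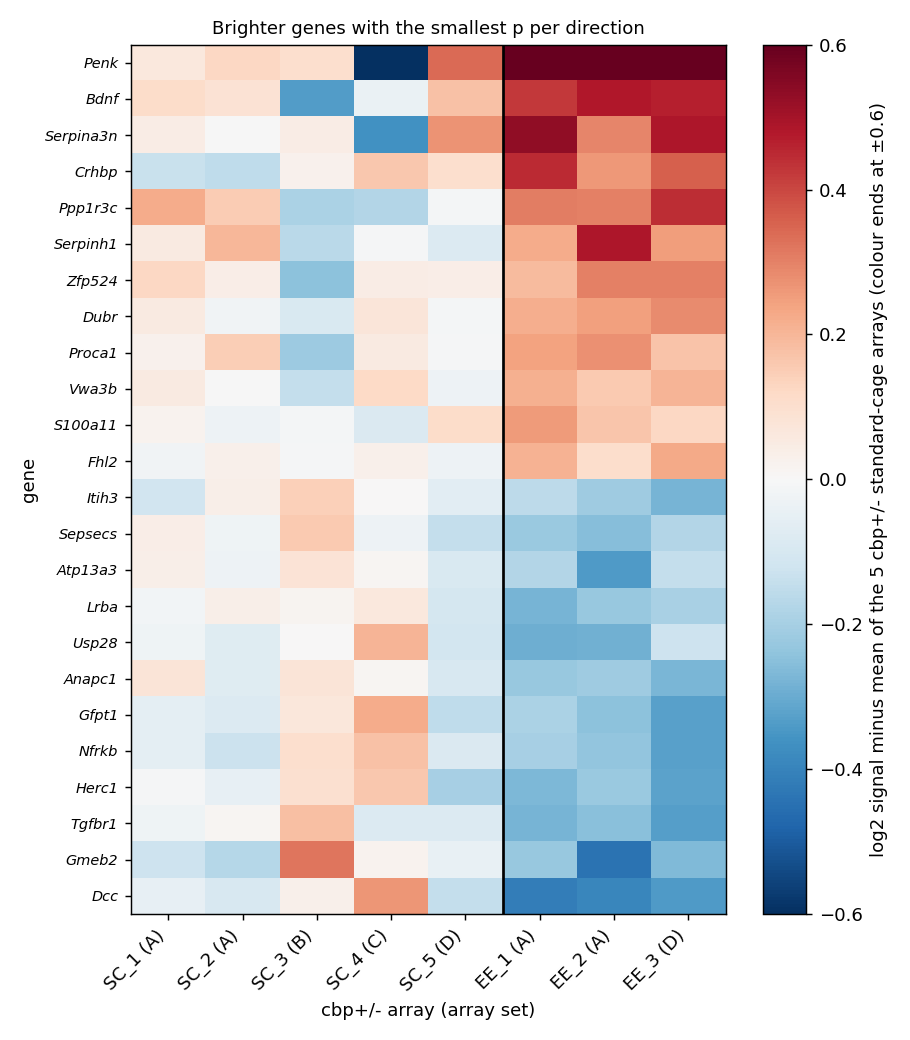
Log2 signal of each cbp+/- array minus the mean of the 5 standard-cage arrays, for the 12 higher and 12 lower genes of the brighter part with the smallest p among separated genes (rows) and the 8 arrays with their set (columns; SC standard cage, EE enrichment). The genes were chosen because their groups do not overlap, so the split at the line is given by the choice; Penk reaches from 7.78 to 9.74 in log2 signal and most others span far less.

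Genes of other cell types and states gave the context of these pools. Choroid plexus genes were lower for 15 of 16 (median -0.15), with 0 separated. Their summed signal was 942 to 8319 in the standard cage, where CBP_SC_3 gave the highest value and 1828 was the highest without it, and 977 to 1119 after enrichment. Without CBP_SC_3 the list's median was 0.017. Microglia and complement genes were higher for 10 of 16 (median 0.028), with Fcrls at 0.34 (SE 0.16) and 0.15 without CBP_EE_3. In the other direction, Csf1r of that list was at -0.24 (SE 0.14). Neocortical markers were higher for 6 of 14 (median -0.014), and the upper-layer factor gene Cux2 was separated below at -0.16 (SE 0.096). Fezf2 of the same list was at 0.20 (SE 0.11), with 2 of 3 enrichment arrays above the standard-cage range. Meninges and blood genes were higher for 10 of 14 (median 0.082), with the neutrophil gene S100a9 separated above at 0.12 (SE 0.056).

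Heat shock proteins and chaperones were higher for 18 of 23, with a median of 0.11 that was 0.014 without CBP_EE_3, 0.052 in set A and 0.037 in set D. Hsph1, a co-chaperone gene of Hsp70, was the 1 separated above, against 1.71% of all genes. It read 10.62, 10.72, 10.32, 10.64 and 10.72 against 10.87, 10.81 and 10.88, a change of 0.25 (SE 0.11) that was 0.18 without CBP_SC_3. Circadian clock genes were lower for 15 of 17 (median -0.097, but -0.030 without CBP_SC_3, -0.013 in set A and -0.020 in set D). Nfil3, already described, was the 1 separated above, against 1.71% of all genes. Interferon-stimulated genes were higher for 10 of 16 (median 0.021, but -0.072 in set D), with Rsad2 separated above at 0.12 (SE 0.053) and a low level.

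The response of cbp+/- mice was then set beside that of their wild-type littermates, which share no array with it. The question was whether the changes differ between genotypes, and the test was the interaction in the limma fit. Of 21780 probe sets, 0 passed an adjusted p of 0.05 (0%), the smallest adjusted p was 1.00, and 579 (2.66%) had an unadjusted p under 0.05. In wild type 1996 probe sets were separated above (9.16%) and 435 below (2%). Of the wild-type enrichment arrays, only WT_EE_2 shared a set with other arrays, set A. WT_EE_1 and WT_EE_3 each formed a set alone (E and F), so for them housing and array set cannot be told apart. This limits the wild-type counts, the wild-type changes and the interaction. Of the 358 separated above in cbp+/- mice, 78 were so in wild type too, which is 21.8% of the cbp+/- and 3.91% of the wild-type set. Of the 272 below, 40 were shared, 14.7% and 9.20%. Across the 21780 probe sets the changes of both genotypes had a Pearson correlation of 0.621. These probe sets come from the same arrays, and same-numbered standard-cage arrays of both genotypes fell in the same array sets, whose part in this value was not tested.

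Bdnf, Penk, Npy and Inhba were higher after enrichment in wild type too. Bdnf read 6.91, 6.95, 6.97, 6.62 and 6.88 on the wild-type standard-cage arrays and 7.29, 7.25 and 7.09 after enrichment. These groups did not overlap, and the change was 0.34 (SE 0.10) against 0.46 in cbp+/- mice. The difference of the changes was 0.11 (SE 0.15). For Penk the wild-type change was 0.77 and the difference 0.17 (SE 0.40), for Npy 0.62 and -0.0073 (SE 0.28), and for Inhba 0.30 and -0.070 (SE 0.13). Dcc differed by -0.30 in wild type, also without overlap, and the difference was -0.082 (SE 0.13). Other secreted factors were further apart relative to their size: Cck differed by -0.36 in wild type and -0.0016 in cbp+/- mice (difference 0.36, SE 0.29), Sst by -0.10 and 0.12, Pdyn by 0.17 and -0.015, and Vgf by 0.15 and 0.30. The errors of these differences are wide, so equal responses are not shown. The median change of the CREB-target list was 0.15 in wild type and 0.19 in cbp+/- mice.

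Of the genes given values here, the largest difference between genotypes relative to its error was that of Serpina3n. In wild type it read 9.99, 10.16, 9.87, 9.89 and 9.62 in the standard cage and 9.58, 9.73 and 9.70 after enrichment, a change of -0.23. The wild-type groups overlapped, as CBP_EE arrays and wild-type standard-cage arrays also did. The difference of the changes was 0.67 (SE 0.18, limma adjusted p = 1.00). Rhoj differed by -0.039 in wild type, with a difference of 0.34 (SE 0.10), and Fhl2 by -0.067, with a difference of 0.25 (SE 0.095). These genes were chosen for their separation in cbp+/- mice, which favours a larger value there. Mcm7 differed by -0.13 in wild type and by 0.11 in cbp+/- mice, a difference of 0.24 (SE 0.11).

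**Figure D4:**
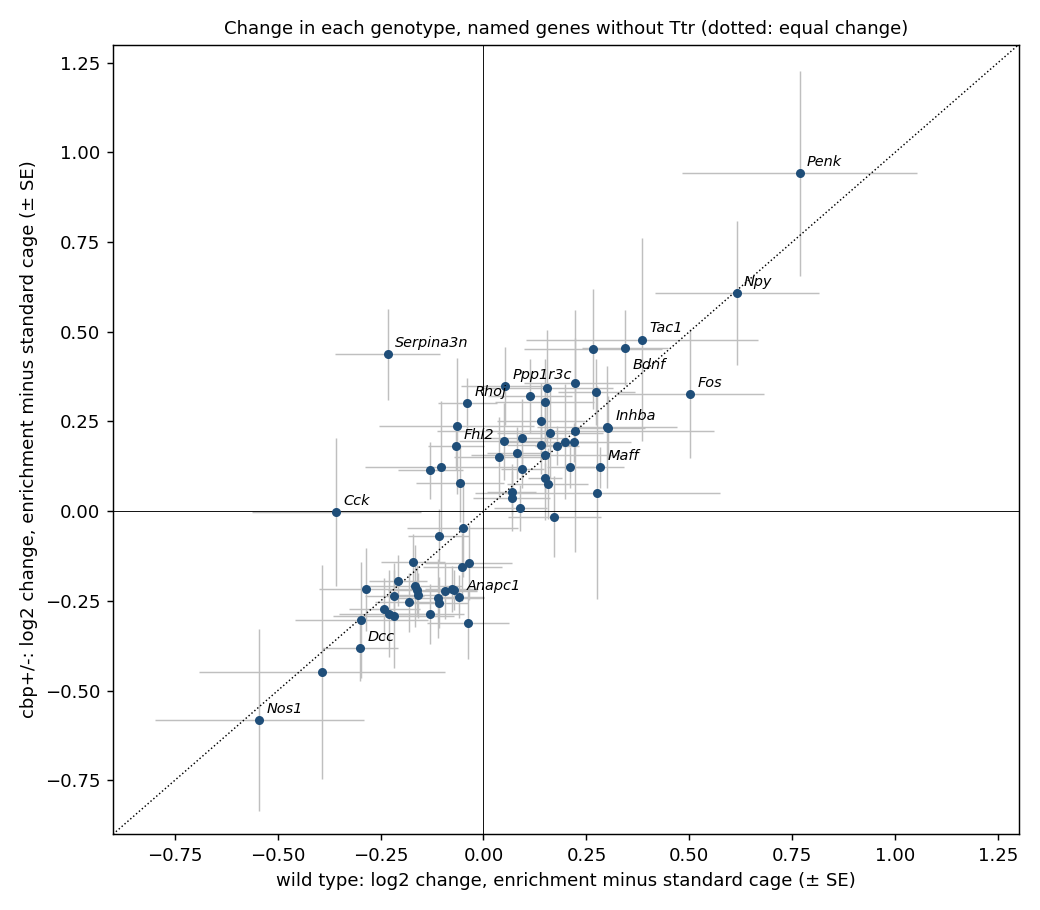
Log2 change with enrichment in wild-type mice (horizontal axis) and in cbp+/- mice (vertical axis) with SE for most of the named genes, without Ttr. The dotted line marks equal change. Many genes were chosen by their cbp+/- values; Bdnf (0.34 and 0.46) and Penk (0.77 and 0.94) lie near the line, and Serpina3n (-0.23 and 0.44) lies farthest above it.

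The direction of change varied with the brightness of the probe set, which touches every count above. In 10 classes of brightness, the median change was 0.0033, 0.023, 0.044, 0.052 and 0.032 in the 5 dimmest and -0.0099, -0.030, -0.039, -0.039 and -0.015 in the 5 brightest. Separated above were 285 probe sets of the dimmer part (2.62%) and 73 of the brighter part (0.67%). Separated below were 69 (0.634%) and 203 (1.86%). Bdnf and Penk, at the 57.1 and 89.8 percentiles of brightness, were thus among the fewer brighter ones that were higher. Synaptic and glutamate receptor genes, whose lists had low medians, are bright (median levels of 9.27 and 8.86 against 6.56 for all genes), whereas the choroid plexus list, with the lowest median, is dim (5.79). The part of brightness in the direction of these lists was not tested. With quantile normalization, which gives all arrays 1 distribution, the medians of the synaptic and glutamate receptor lists were -0.11 and -0.082.

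**Figure D5:**
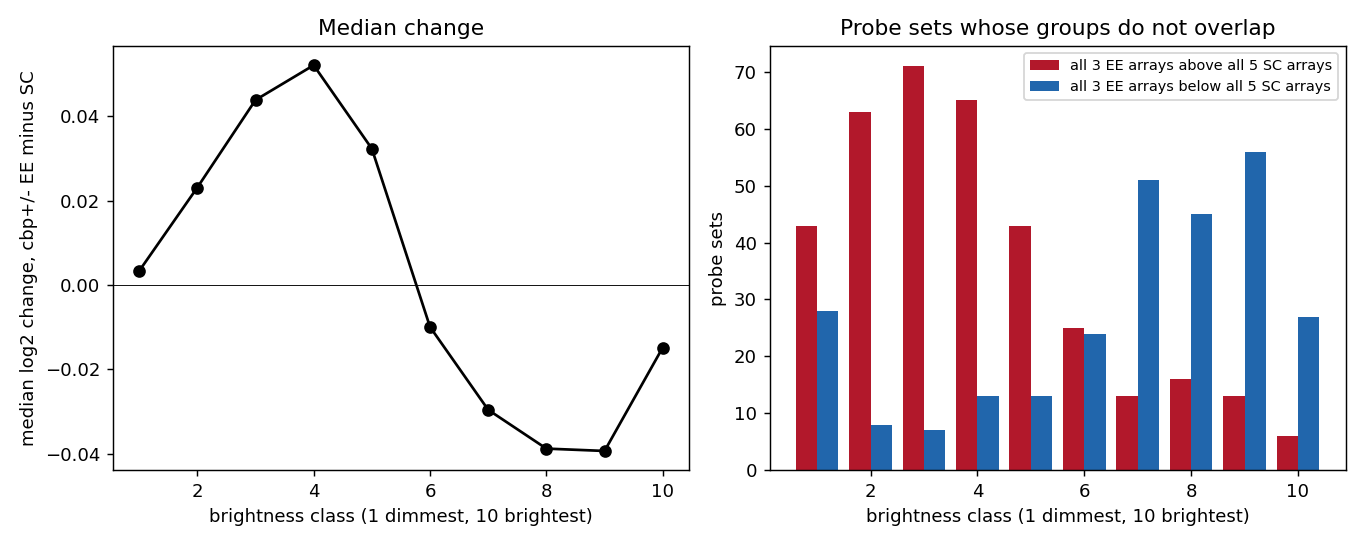
Left, median log2 change in cbp+/- mice by brightness class from 1 (dimmest) to 10 (brightest); right, the number of probe sets in each class with all 3 enrichment arrays above (red) or below (blue) all 5 standard-cage arrays. The median is highest in class 4, at 0.052, and lowest in class 9, at -0.039, and separated probe sets are mostly higher in the dim classes and lower in the bright ones.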

How the data were processed

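Groups and replicate numbers came from the sample titles, and the pools are independent biological replicates per the labels' protocols. The deposited values are intensities of Affymetrix Mouse Gene 1.0 ST probe sets, from 22.12 to 16520.86 with 0 missing. Per the submitters' processing notes they are RMA values, and the labels' protocols name GeneSpring GX, both without a version. The scale was read from the values as linear, and whether a baseline was used for centring is unknown; these arrays have 1 colour and no direction between channels. The median intensity of the cbp+/- standard-cage arrays 1 to 5 was 79.28, 80.19, 76.7, 78.79 and 78.06, and that of the enrichment arrays 1 to 3 was 81.34, 82.43 and 77.65. Those of wild type were 77.35, 77.95, 79.12, 78.71 and 79.03 in the standard cage and 85.46, 82.14 and 79.72 after enrichment. Precision is limited by how few arrays there are.

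Of 28815 deposited probe sets, 21780 had exactly 1 symbol in the platform's table (19935 genes) and were tested, 1605 had several and 5430 were unlisted. By gene number 21689 matched RefSeq's table of GRCm38.p6. The log2 of the deposited intensity was fitted with limma 3.58.1 in R 4.3.3 (lmFit and eBayes, 16 arrays, 4 group means, 12 residual degrees of freedom), with Benjamini-Hochberg adjustment over all 21780 and a threshold of 0.05. The script was tested on simulated data.

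The members and the 32 gene lists (698 entries, 645 measured, 1 brightest probe set per gene) were chosen with earlier results of these data known. Lists are therefore described by counts and medians without a test. Genes were named by rule: 14 fixed genes, all CREB-target genes, up to 4 separated members of each list per direction (otherwise the member with the smallest p), and per direction the 12 brighter and 6 dimmer separated genes with the smallest p, leaving out unnamed gene models and Y-linked genes. Not every gene the rule gives is described. Array sets came from average-linkage clustering on 1 minus Pearson's correlation of log2 values, split at the largest gap between merge heights. Promoters came from RefSeq. Alternatives were the 8 arrays alone, quantile normalization, eBayes with trend and robust options, array weights, the replicate number or the array set as a block, leaving out each array, set A alone and brighter probe sets alone.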

Additional observations from a re-analysis of the deposited data

Results flagged for a closer look

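Within the 5 cbp+/- standard-cage arrays, 1 array lay far from the others for 6 of the 72 genes checked. This was judged by the gap to the nearest array divided by the range of the group (critical value 0.71). Chance alone gives about 1 in 20 such groups. Penk on CBP_SC_4 was at 7.78 against 8.48 to 8.75 on the others, a ratio of 0.717. Pdyn on the same array was at 5.97 against 6.15 to 6.21 (0.744), and Jun at 8.68 against 8.80 to 8.85 (0.712). Nptx2 on CBP_SC_5 was at 6.37 against 6.76 to 6.87 (0.783). On CBP_SC_3, Sema3e was at 7.90 against 8.31 to 8.43 (0.778) and Hsph1 at 10.32 against 10.62 to 10.72 (0.752). In all 6 cases that array was the lowest of its group.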

How the results depend on the processing

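The count of probe sets past an adjusted p of 0.05 was 0 in both directions with the 8 arrays alone, quantile normalization, trend and robust options and every array left out. Array weights, which gave CBP_EE_1 a weight of 8.63 and CBP_SC_3 0.326, gave 692 higher and 347 lower. The array set block gave 1 lower, Rbm33 (-0.44, SE 0.048, limma adjusted p = 0.046), named after its value was seen; it was at -0.26 (SE 0.16) without the block. The deviations of same-numbered cbp+/- arrays of both housings correlated at 0.365 and 0.288 for replicates 1 and 2, which all lie in set A. For replicate 3 the correlation was -0.0435. With the replicate number as a block, 0 were higher and 0 lower, and the smallest adjusted p was 0.16. At an unadjusted p under 0.05 there were 1917 with that block and 1901 with the array set block, instead of 615.

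The number of separated probe sets (358 higher, 272 lower) rises by construction when an array is left out. It ranged from 497 to 2559 higher and from 352 to 1206 lower. The counts exceeded 1.5 times the main ones without CBP_SC_2 (578 higher), CBP_SC_5 (774 and 1206), CBP_EE_1 (627 and 594), CBP_EE_2 (695 and 625) and CBP_EE_3 (2559 and 783). Set A alone gave 6218 and 3905, and brighter probe sets alone 73 higher. Quantile normalization gave 291 higher and 312 lower. The fits with other errors, weights or blocks cannot alter this count. The interaction gave 0 under quantile normalization and both blocks.

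Within set D, which is 1 array of each housing, the sign was opposite for several genes. Examples are Vip (-0.087), Crh (-0.066), Cartpt (-0.013), Gal (-0.12), Dcx (0.12), Nos1 (0.034), Crebbp (0.023) and Ep300 (0.038). In the other settings signs turned for few genes. Under quantile normalization Cck was at 0.020 and Gal at -0.023. Chga was at 0.075 with array weights, 0.053 with the replicate block, 0.086 with the array set block and 0.12 in set A, where Pdyn was at 0.099. Leaving out 1 array gave -0.061 to 0.27 for Egr1, -0.18 to 0.13 for Pdyn, -0.087 to 0.062 for Cck, -0.056 to 0.092 for Gal, -0.059 to 0.12 for Cartpt and -0.12 to 0.0011 for Chga. The cause was not tested.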
